A study of Mus musculus with 20 samples.

Results

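The comparison of AP5 with vehicle across the genome was made in cultured mouse hippocampal neurons. It covers 10 of the series' 20 arrays, chosen by their titles: 5 of cultures given vehicle, called control here, and 5 of cultures given AP5. Both groups were dissociated hippocampal neurons that had been kept for 21 days, and both exposures lasted 24 h, AP5 at 100 µM. The remaining arrays, 5 with 100 nM NVP-AAM077 (NVP) and 5 with 1 µM of the compound titled Ro25, also for 24 h, were used for the estimate of spread and as values set beside AP5. Each array compared a sample's RNA, labelled with Cy5, with a universal mouse reference RNA labelled with Cy3, and dyes were never swapped. A gene's level is therefore a log2 ratio to the reference, and a change is AP5 minus control on that scale. The labels do not name the strain, sex or age of the mice, nor whether the 5 arrays of a group stand for 5 separate cultures, so the p-values speak only of the spread among these arrays, which may be technical.

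AP5 is a competitive antagonist at the glutamate site of NMDA receptors. These receptors pass calcium when glutamate binding coincides with depolarisation, and the calcium they admit drives kinase and phosphatase pathways that reach the nucleus. The best known transcripts under this control are immediate early genes, and the title of the series adds Ptgs2, an inducible cyclooxygenase. The description below gives weight to genes outside these classic activity programmes and to changes of 1.3- to 2-fold, called moderate here.

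Signal of the sample dye stood well above background for 65.9% ± 2.33 of probes in control and 63.7% ± 2.35 in AP5 arrays (SD, n = 5 each), and 19353 genes entered the test. AP5 array 1 stood apart the most from its group, with a root mean square deviation of 0.288 on the log2 scale against 0.124 to 0.214 for the other 9 arrays. It lay closer to the reference in most cell type marker lists, for example at 4.04 for the mean of the 16 pan-neuronal markers against 4.37 to 4.70 on the others, and it was scanned on the second of 3 days. AP5 and control arrays never shared a slide. With slide as a fixed block the comparison is made by way of the NVP and Ro25 arrays and rests on control array 3 and AP5 arrays 1 and 5, so slide and treatment are only partly separable. The blocked value is given beside many results, and, singly or as a range, wherever it differs by more than 1.5 times for a gene that passed. Unless stated otherwise a gene named below did not pass with it.

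With AP5 489 genes rose (2.53%) and 694 fell (3.59%), so 1183 (6.11%) passed at a limma adjusted p under 0.05; 3444 had an unadjusted p under 0.05. Most changes were small: 511 of them were under 1.3-fold, 612 were moderate and 60 reached 2-fold. The moderate changes, 3.16% of all genes tested, split into 258 higher (1.33%) and 354 lower (1.83%). At 2-fold and over the balance was 7 higher to 53 lower. Thus the rises were nearly all of moderate size or below, and the large changes were mainly falls. Of the 612 moderate genes 16 (1 higher, 15 lower) are in the lists of classic activity genes, namely immediate early, late activity-regulated and ERK feedback. The other 596 are outside these lists, and of the 60 genes at 2-fold and over 17 are in them. The classic lists are short. In them 9 of 39 immediate early, 1 of 26 late activity-regulated and 6 of 15 ERK feedback genes tested were moderate, beside 3.16% of all genes. Without AP5 array 1 the passing genes were 627 higher and 589 lower, and rises made up 51.6% of them in place of 41.3%; with the scanner's own log ratios the share was 52.0%, with the values deposited by the authors 52.1% and with the slide block 14.6%. The excess of falls over rises among all passing genes thus moved with that array and with the normalization.

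**Figure D1:**
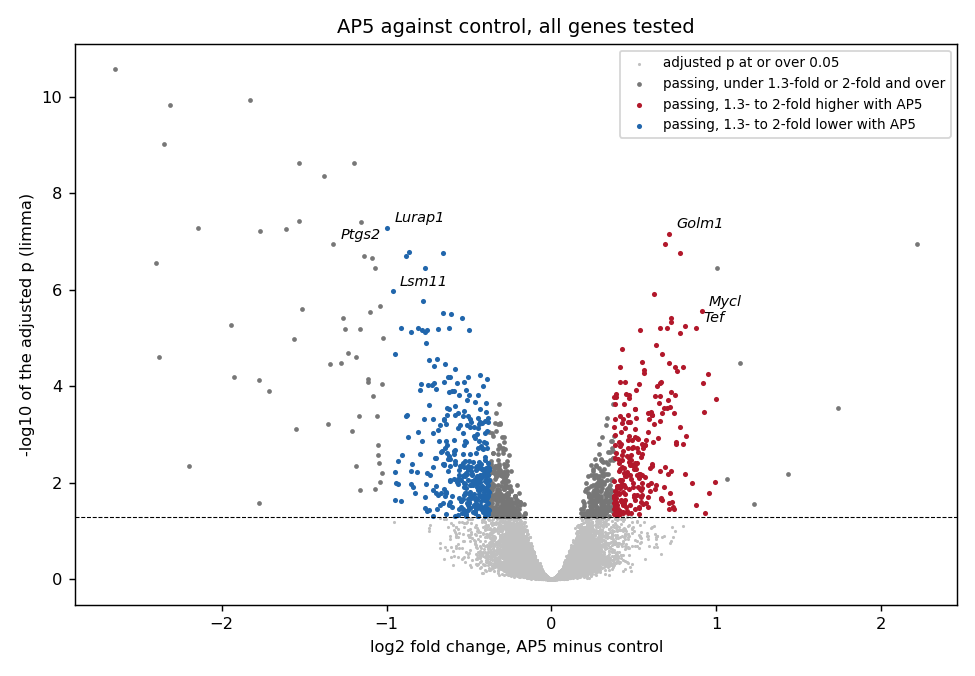
Each point is 1 of the 19353 genes: the x axis is its log2 fold change, AP5 minus control, and the y axis is −log10 of its limma adjusted p, with the dashed line at 0.05. Red and blue points are the 258 higher and 354 lower moderate genes; beyond 2-fold the left arm holds 53 genes and the right arm 7.

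Several measures describe the moderate calls, all from the arrays on which these genes were chosen. Of the 612, 438 (71.6%) passed whichever 1 of the 10 arrays was left out. Of 316 further probes for 230 of these genes, 284 (89.9%) pointed the same way as the probe that was used, against 68.4% for further probes of genes that did not pass. With slide as a block 553 of the 612 kept their direction, but only 41 genes (0.212%) passed across the whole array and 13 of them were moderate by that fit. The 5 AP5 arrays did not overlap the 5 control arrays for 1242 of all genes tested (6.42%) and for 461 of the 612. Since the 612 were chosen by adjusted p and size on these arrays, none of these measures is independent support. Apart from the slide block, none of them separates slide from treatment.

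Ptgs2 was read first, since the title names it. Its log2 ratios were −1.36, −1.22, −0.97, −1.17 and −0.73 on control arrays 1 to 5, and −2.34, −2.53, −2.41, −2.58 and −2.22 on AP5 arrays 1 to 5. All 5 AP5 arrays were below all 5 control arrays. Ptgs2 fell by 1.32 on the log2 scale (SE 0.11, limma adjusted p = 1.14e-07), and by 1.35 with slide as a block (adjusted p = 0.0866).

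Of the moderate genes outside the classic lists, 11 rises and 12 falls of lowest adjusted p are described one by one. In all 23 of them the AP5 and control arrays did not overlap, and all 23 passed among arrays of the first scan day alone. The 23 were chosen by low adjusted p on these same arrays, which favours separated groups, and the first-day arrays are a part of them. The same direction with the slide block was also required. None of these is thus independent support. The functions of the 23 genes were mixed. The 11 that rose had log2 changes of 0.623 to 0.912 and the 12 that fell of −0.996 to −0.540.

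Golm1, which encodes a membrane protein of the Golgi, had the lowest adjusted p of the moderate rises. Its log2 ratio was 1.04, 0.99, 1.01, 0.95 and 1.00 on the control arrays and 1.64, 1.68, 1.66, 1.84 and 1.75 on the AP5 arrays. The AP5 values lay close together and all above control, a rise of 0.71 (1.64-fold, 95% interval 0.60 to 0.83; limma adjusted p = 6.98e-08). The slide block gave 0.66. Ssr3, a subunit of the translocon-associated complex of the endoplasmic reticulum, also belongs to the secretory pathway. Its control values ran from −1.58 to −1.30 and its AP5 values from −0.83 to −0.57, with all 3 probes higher. It rose by 0.70 (SE 0.08, limma adjusted p = 6.17e-06) and by 1.13 with the slide block, where it still passed (adjusted p = 0.0220).

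Macrod1 and Bid passed with the block as well. Macrod1 encodes a hydrolase that removes ADP-ribose from proteins. It read −1.10, −0.94, −1.08, −1.05 and −0.99 in control and −0.42, −0.23, −0.29, −0.35 and −0.41 with AP5. Both its probes were higher, and the change was 0.69 (SE 0.06, limma adjusted p = 1.15e-07) and 0.76 once slide was a block (adjusted p = 0.0382). Bid, a member of the BCL2 family that carries death receptor signals to mitochondria, read −1.08, −1.02, −1.22, −1.13 and −1.03 in control and −0.50, −0.49, −0.44, −0.50 and −0.44 with AP5. The AP5 arrays were tightly grouped. The rise was 0.62 (SE 0.06, limma adjusted p = 1.20e-06; with the block 0.88, adjusted p = 0.0302).

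Among transcription regulators Mycl, the L-MYC member of the MYC family, rose by 0.91 (SE 0.09, limma adjusted p = 2.79e-06), and its blocked value was 0.47. It lay at −3.21 to −2.87 in control and −2.35 to −1.88 with AP5. Tef, a PAR bZIP factor that works with the circadian clock, rose by 0.88 (SE 0.09, adjusted p = 6.13e-06). Csrp2, a LIM-domain protein, rose by 0.78 (SE 0.06). The chloride channel gene Clcn2 rose by 0.72 (SE 0.08), with all AP5 arrays (1.74 to 2.18) above control. Spn, known as the leukocyte sialoglycoprotein CD43, rose by 0.73 (SE 0.08) at a level far under the reference, −3.80 to −3.77 in control and −3.24 to −2.96 with AP5. The others were Fam107b at 0.81 and Ccdc126 at 0.66.

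Lurap1, a leucine-rich adaptor protein, had the lowest adjusted p of the moderate falls and sat at the 2-fold edge. It read 2.08, 2.16, 2.08, 2.11 and 1.97 in control and 0.77, 1.21, 1.12, 1.04 and 1.28 with AP5. Its change was −0.996 (SE 0.08, limma adjusted p = 5.16e-08). The block gave −1.17, which passed (adjusted p = 0.0201). Lsm11, part of the U7 particle that trims histone messenger RNAs, read 0.36, 0.51, 0.52, 0.20 and 0.03 in control and −0.76, −0.39, −0.74, −0.64 and −0.67 with AP5. Every AP5 array was below 0 and every control array above it. Lsm11 fell by 0.96 (SE 0.09, limma adjusted p = 1.07e-06) and by 1.39 with the block (adjusted p = 0.0188).

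The signalling genes among the moderate falls included Nfkbie, an inhibitor that holds NF-kB in the cytoplasm, and Rasgef1b, an exchange factor for Ras-family proteins. Nfkbie read −0.14, 0.01, −0.05, −0.13 and −0.10 in control and −0.91, −0.70, −0.77, −0.65 and −0.67 with AP5. It fell by 0.66 (SE 0.05, limma adjusted p = 1.71e-07; with the block −0.80, adjusted p = 0.0217). Rasgef1b fell by 0.69 (SE 0.08, adjusted p = 6.64e-06; with the block −1.03, adjusted p = 0.0201), from 1.17 to 1.46 in control to 0.55 to 0.82 with AP5. The bZIP factor Batf3 fell by 0.78 (SE 0.08), Rhobtb1, which encodes a protein with BTB domains, by 0.77 (SE 0.07) and the lysine methyltransferase gene Smyd2 by 0.81 (SE 0.09, −0.51 with the block). Fbxo9, an F-box protein of ubiquitin ligases, fell by 0.87 (SE 0.07). Tfrc, the transferrin receptor through which cells take up iron, fell by 0.54 (SE 0.06, limma adjusted p = 3.94e-06), from −1.18 to −0.98 in control to −1.66 to −1.52 with AP5. The remaining falls, Synj2, Dgkz and Ttc7, belong to or support the handling of phosphoinositides and are described with that group.

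**Figure D2:**
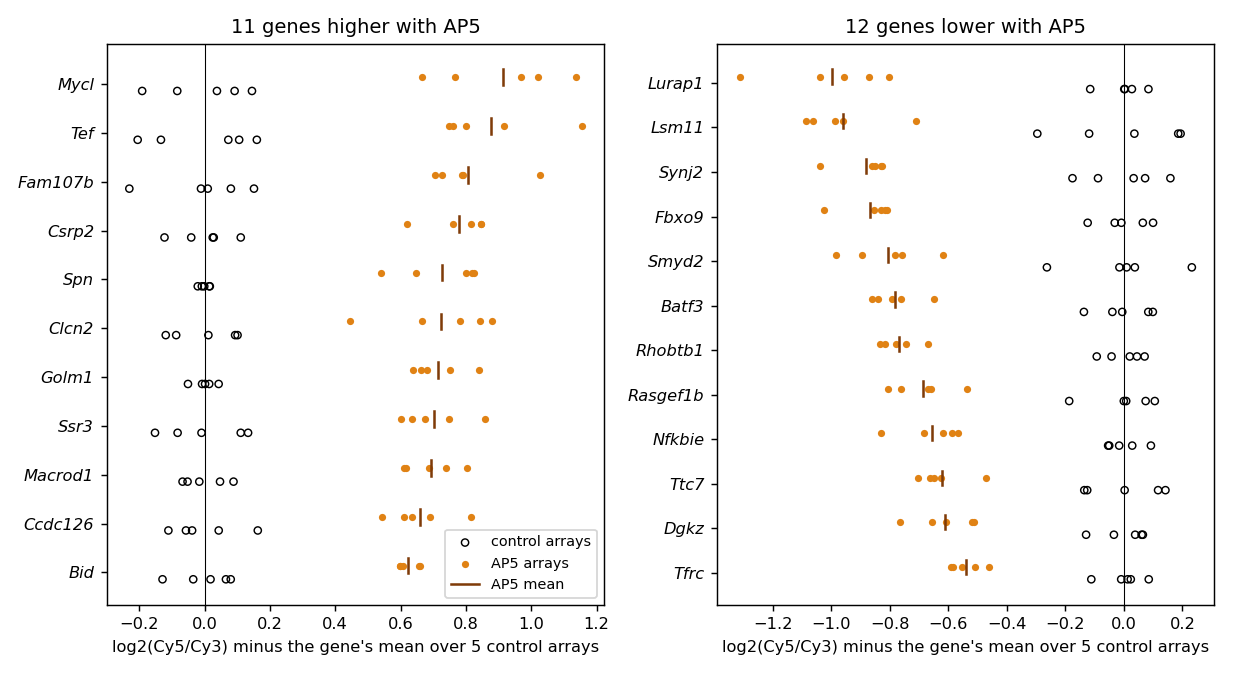
Log2 ratios of the 23 named moderate genes on each array, less the gene's mean over the 5 control arrays (x axis, log2 units; open circles control, orange points AP5, brown bars the AP5 mean). In each of the 23 genes the orange points lie on one side of all open circles, with mean shifts of 0.623 to 0.912 on the left panel and −0.996 to −0.540 on the right.

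The other antagonists were compared with the same control arrays, so their values are only set side by side. Over the 11 rises the NVP values ran from −0.18 to 0.16 and the Ro25 values from −0.05 to 0.27. Over the 12 falls the NVP values ran from −0.22 to 0.03 and the Ro25 values from −0.34 to 0.02. With NVP and with Ro25 0 of the 23 passed by limma, and 5 and 7 of them had an unadjusted p under 0.05. The 23 were chosen by their AP5 p-values, and the shares of all genes passing with NVP or Ro25 are not given here. These counts therefore cannot show that the changes are particular to AP5.

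Beyond single genes, 51 lists of functions were read. Not every list is described, and the shares given are to be set against the 6.11% of all genes that passed. The median of all genes was −0.01, and −0.05 with the slide block, and is the value to set beside the list medians given. The 51 lists hold 1989 tested genes. The leave-one-out fits are the 10 fits without 1 AP5 or control array.

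Phosphoinositide and diacylglycerol signalling, which turns receptor signals into membrane lipid messengers and inositol phosphates, had 8 of 56 genes passing (14.3%), 1 higher and 7 lower. The list's median was 0.02, and −0.34 with the slide block. Of the 8, 6 encode enzymes that remove or convert the messengers. This grouping was made after the values were seen, and such enzymes were not counted among the 56. Synj2, a synaptojanin that dephosphorylates phosphoinositides, read 0.78, 0.57, 0.66, 0.91 and 0.82 in control and −0.11, −0.08, −0.08, −0.29 and −0.10 with AP5. All 4 of its probes were lower, and it fell by 0.88 (SE 0.07, limma adjusted p = 2.02e-07, −0.85 with the slide block). Dgkz, a kinase that ends diacylglycerol signals, read 1.503, 1.48, 1.41, 1.51 and 1.31 in control and 0.68, 0.93, 0.83, 0.93 and 0.79 with AP5, a fall of 0.61 (SE 0.06, adjusted p = 3.24e-06, −0.77 with the block). The groups were far apart in both genes.

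Itpka, a neuronal kinase of inositol trisphosphate found in dendritic spines, read 3.86, 3.84, 3.84, 3.89 and 3.80 in control and 2.95, 3.33, 3.33, 3.28 and 3.099 with AP5. It fell by 0.65 (SE 0.08, limma adjusted p = 3.50e-05), and with the slide block by 1.05, where it passed (adjusted p = 0.0143). Inpp5k, an inositol polyphosphate phosphatase, was the one member that rose, by 1.00 (SE 0.09, adjusted p = 3.56e-07, 0.61 with the block). The phosphatases Inpp5d (−0.56) and Inpp5f (−0.40, and −0.04 with the block), outside the naming rule and chosen here after their values were seen, fell too. Ttc7, a scaffold of a phosphatidylinositol kinase and not a list member, fell by 0.62 (SE 0.07). Of the 8 calls 6 passed in every leave-one-out fit, and the count ran from 6 to 8.

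Cyclic nucleotide signalling gave 4 passing genes of 42 (9.52%), 3 higher and 1 lower, and the list's median was −0.01, and −0.26 with the slide block. Rapgef3, the cAMP-activated exchange factor EPAC1, read 0.43, 0.50, 0.29, 0.15 and 0.24 in control and 1.01, 0.89, 1.26, 1.26 and 1.09 with AP5. It rose by 0.78 (SE 0.09, limma adjusted p = 7.77e-06, 0.67 with the slide block). The endogenous inhibitors of protein kinase A went opposite ways. Pkia rose by 0.70 (SE 0.11, adjusted p = 0.000286), from 3.11 to 3.68 in control to 3.95 to 4.39 with AP5, while Pkig fell by 0.40 (SE 0.07, adjusted p = 0.000937), from 0.93 to 1.08 to 0.48 to 0.68. Pde1b, a phosphodiesterase stimulated by calcium and calmodulin, rose by 0.36 (SE 0.07). All 4 passed in every leave-one-out fit; with the block Pkia shrank to 0.20, and Pkig stood at −0.58.

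Of the 64 chromatin modifiers tested 4 passed (6.25%), close to the background, 2 higher and 2 lower. The list's median was 0.03, and −0.32 with the slide block. Of the 4, 3 are class IIa histone deacetylases, which calcium signals move out of the nucleus; this subset was picked after the values were seen. Hdac4 rose by 0.72 (SE 0.15, limma adjusted p = 0.00576), Hdac5 fell by 0.27 (SE 0.05, adjusted p = 0.00425) and Hdac9 fell by 1.03 (SE 0.22, adjusted p = 0.00616). The remaining class IIa gene, Hdac7, stood at −0.08 and did not pass (adjusted p = 0.655). Hdac9 read 4.59, 4.72, 4.34, 4.73 and 4.77 in control and 2.42, 3.73, 4.10, 3.67 and 4.11 with AP5. AP5 array 1 was the lowest, and the other AP5 arrays still lay under every control array. With the slide block the values of Hdac4, Hdac5 and Hdac9 were 0.29, −0.39 and −1.27.

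Clock and PAR bZIP genes had 5 of 23 passing (21.7%), all higher, beside 2.53% of all genes higher, and a median of 0.09 (0.21 with the slide block). Tef read 0.25, −0.03, 0.34, 0.28 and 0.04 in control and 1.33, 1.09, 0.94, 0.92 and 0.98 with AP5, with all 3 probes higher. Hlf, a second PAR bZIP factor, rose by 0.53 (SE 0.12, limma adjusted p = 0.00814), the clock repressor gene Ciart by 0.41 (SE 0.08, adjusted p = 0.00397), the nuclear receptor gene Rora by 0.50 (SE 0.11, adjusted p = 0.00992) and Cry1, a core clock repressor, by 0.29 (SE 0.07, adjusted p = 0.0113). The third PAR factor, Dbp, stood at 0.28 and did not pass (adjusted p = 0.204). The core activators Arntl (0.15) and Clock (0.12) did not pass, nor did Per1 (−0.28), Per2 (−0.27) and Cry2 (−0.29). Cry1, Dbp and the members that did not pass are outside the naming rule and were chosen after their values were seen. All 5 calls passed in every leave-one-out fit, and each kept its direction with the slide block (0.26 to 1.00). Without AP5 array 3 the list had 5 higher and 1 lower, and on the first scan day alone 3 of the 5 passed. At an unadjusted limma p under 0.05, 7 of the 23 were higher and 3 lower.

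For these 5 genes, all called higher, the 250 bases before their start sites and the 50 after were searched on both strands. Of 9 motifs searched the one shown is the E-box CACGTG, a palindrome bound by the clock activators and by MYC proteins. Of the 32851 RefSeq windows (build GRCm38.p6) 7.15% held it. By gene it was found in 1353 of the 12614 genes tested that had a window, in 5 of the 19 clock and PAR bZIP genes with a window (26.3%), and in 3 of the 5 that passed, Tef, Ciart and Cry1. The share was as high in immediate early genes, a list in which 18 of 39 genes fell and 0 rose, where 8 of 30 with a window (26.7%) held it. Of the same 5 passing clock genes, 4 held the CCAAT box (CCAAT, found in 42.5% of genes tested with a window) and 0 the D-box (TTANGTAA, found in 2.09%), a motif bound by PAR bZIP factors. The 150 bases before the start site of these 3 are given 5′ to 3′ with the E-box in capitals, to show its place and number. They lie at chr15:81802523-81802672 on the plus strand, chr3:95882229-95882378 on the minus strand and chr10:85185055-85185204 on the minus strand.
Tef: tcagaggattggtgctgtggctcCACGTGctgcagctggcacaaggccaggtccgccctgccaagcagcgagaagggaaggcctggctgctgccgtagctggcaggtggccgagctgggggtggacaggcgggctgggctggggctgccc
Ciart: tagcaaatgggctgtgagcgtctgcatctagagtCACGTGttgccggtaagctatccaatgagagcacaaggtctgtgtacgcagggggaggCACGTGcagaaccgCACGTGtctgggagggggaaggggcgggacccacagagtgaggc
Cry1: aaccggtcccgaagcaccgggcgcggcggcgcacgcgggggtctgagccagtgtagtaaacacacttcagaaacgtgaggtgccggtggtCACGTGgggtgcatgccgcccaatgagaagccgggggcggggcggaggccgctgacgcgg
Ciart holds 3 copies in this stretch and the others 1 each. A match describes the letters only, and binding was not measured.

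Wnt signalling had 7 of 52 genes passing (13.5%), 5 higher and 2 lower, with a median of 0.00. Of the secreted ligands 3 rose and 1 fell. Wnt4 rose by 0.66 (SE 0.11, limma adjusted p = 0.000527), Wnt9a by 0.52 (SE 0.10, adjusted p = 0.00235) and Wnt5b by 0.38 (SE 0.07, adjusted p = 0.00327), while Wnt10a, chosen here after its value was seen, fell by 0.25 (SE 0.06, adjusted p = 0.0248). Wnt4 lay at −0.29, −0.51, −0.23, −0.44 and −0.76 in control and at 0.19, 0.30, 0.25, 0.23 and 0.09 with AP5. Apcdd1, a membrane inhibitor of the pathway, rose by 0.75 (SE 0.11, adjusted p = 0.000152). Axin2, a feedback inhibitor widely read as a target of the pathway and chosen here after its value was seen, fell by 0.52 (SE 0.11, adjusted p = 0.00631). With the slide block Apcdd1 stood at 0.99, Axin2 at −1.07 and Wnt10a at −0.42, but Wnt4, Wnt9a and Wnt5b shrank to 0.09, 0.29 and 0.11. Of the 7 calls 5 passed in every leave-one-out fit, and the count ran from 5 to 10.

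In the TGF-beta family 7 of 57 genes passed (12.3%), 4 higher and 3 lower. The ligand subunit gene Inhbb, which forms activin B, fell by 0.51 (SE 0.08, limma adjusted p = 0.000409), while Fst, whose product follistatin binds activins, rose by 0.49 (SE 0.09, adjusted p = 0.00127). Inhbb ran from 1.31 to 1.63 in control and 0.71 to 1.04 with AP5, and Fst from −1.64 to −1.25 and −1.16 to −0.80. The inhibitory Smad gene Smad7 fell by 0.41 (SE 0.08, adjusted p = 0.00338). The receptor gene Acvr1b rose by 0.51 (SE 0.11) but turned to −0.07 with the slide block, where Inhbb, Fst and Smad7 stood at −0.66, 0.16 and −0.71. The count fell to 4 without control array 1 or control array 3.

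Among growth factors, 3 of 51 genes passed (5.88%), near the background, and 5 without AP5 array 1. Pdgfb, the B chain of platelet-derived growth factor, read 1.63, 1.48, 1.57, 1.73 and 1.42 in control and 0.57, 0.96, 1.15, 0.94 and 0.95 with AP5, a fall of 0.65 (SE 0.09, limma adjusted p = 8.06e-05, −1.01 with the slide block). Ccn2, the connective tissue growth factor, fell by 0.91 (SE 0.17, adjusted p = 0.00270) at a low level, −3.36 to −2.59 in control and −4.25 to −3.62 with AP5, but stood at −0.14 with the block. Of 33 receptor tyrosine kinases 4 passed (12.1%). Tyro3, a receptor of the TAM family, fell by 0.88 (SE 0.14, adjusted p = 0.000392), from 1.51 to 1.87 to 0.22 to 1.27; 2 of its 3 probes were lower. Csf1r and Kdr were higher (0.46 and 0.73) and turned to −0.05 and −0.34 with the block; Kdr also did not pass without AP5 array 2, 3 or 5 or control array 2, 4 or 5 (up to adjusted p = 0.0724).

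Proteoglycan core and link proteins and the enzymes that build and sulfate heparan and chondroitin chains had 10 of 57 genes passing (17.5%), 4 higher and 6 lower, with a median of −0.06. Hs6st2, a heparan 6-O-sulfotransferase, read 0.04, 0.22, −0.13, 0.21 and 0.11 in control and −0.53, −0.30, −0.45, −0.39 and −0.54 with AP5, a fall of 0.53 (SE 0.08, limma adjusted p = 0.000318). The 3-O-sulfotransferase gene Hs3st1 fell by 0.65 (SE 0.13, adjusted p = 0.00415). Csgalnact1, which starts chondroitin chains, rose by 0.57 (SE 0.10, adjusted p = 0.00163), every AP5 array (−1.18 to −0.90) above every control array, and the sulfotransferase gene Chst1 rose by 0.47 (SE 0.09, adjusted p = 0.00192). With the slide block these 4 stood at −0.30, −0.68, 0.77 and 0.10. The count fell to 5 without AP5 array 3 and to 6 without AP5 array 4, control array 1 or control array 4. The balance turned to 6 higher and 5 lower without AP5 array 1, and to 4 higher and 3 lower without control array 3.

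Receptors for amines and peptides had 8 of 60 passing (13.3%), 2 higher and 6 lower. Without AP5 array 1 the balance turned to 5 higher and 2 lower, with 4 of the 8 calls kept. The cholecystokinin receptor gene Cckbr read 3.56, 3.75, 3.62, 3.67 and 3.49 in control and 1.93, 3.16, 2.63, 2.86 and 3.26 with AP5. It fell by 0.85 (SE 0.18, limma adjusted p = 0.00561; by 0.53 on the first scan day alone, which leaves out AP5 arrays 1 and 3). Nmbr, a bombesin-type receptor, fell by 0.85 (SE 0.19, adjusted p = 0.0105). Htr1a, the serotonin 1A receptor, rose by 0.81 (SE 0.17, adjusted p = 0.00645), but AP5 array 1 at 0.70 lay among the control arrays (0.36 to 0.82) and the other AP5 arrays at 1.36 to 2.05. The count fell to 5 without AP5 array 3 or control array 2, 4 or 5, and with the block Cckbr, Nmbr and Htr1a stood at −1.19, −0.61 and 0.48.

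Among p53 target genes 6 of 40 passed (15%), 3 higher and 3 lower, with a median of 0.00. The rises were the cell death genes Apaf1 (0.64), Bbc3 (0.72) and Pmaip1 (0.48), which act at or beside mitochondria, as Bid does. Plk3, a kinase that is also an activity-regulated gene, fell by 1.07 (SE 0.09, limma adjusted p = 3.56e-07; −0.52 with the block). The block left Apaf1 at 0.46, Bbc3 at 0.12 and Pmaip1 at 0.21. DNA repair genes had 9 of 45 passing (20%), 3 higher and 6 lower. Those lower included Fanci of cross-link repair (−0.50, SE 0.10) and the replication ligase gene Lig1 (−0.46, SE 0.10), and the mismatch repair gene Msh3 rose by 0.39 (SE 0.06, limma adjusted p = 0.000472). Their blocked values were −0.54, −0.14 and 0.43.

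Cell cycle genes, which are active in dividing cells, were lower for 29 of 51 (56.9%, beside 3.59% of all genes lower), with 0 higher and a median of −0.35. The changes were small, −0.62 to −0.27 over the 29, and 21 of them were moderate. They spanned the phases: the replicative helicase gene Mcm2 (−0.44, SE 0.08), the S-phase enzyme gene Tk1 (−0.34, SE 0.07), the cyclin A gene Ccna2 (−0.58, SE 0.09) and the mitotic ubiquitin carrier gene Ube2c (−0.42, SE 0.08, −0.27 with the block). Ccna2 lay at −2.24 to −1.86 in control and −2.79 to −2.57 with AP5. Each of these genes lay far under the reference. In bulk RNA fewer dividing cells and less of these transcripts per cell cannot be told apart. Without control array 2 18 of the 29 calls were kept, and with the slide block the list median was −0.30.

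The mTOR and insulin list had 5 of 42 passing (11.9%), 3 higher and 2 lower, with a median of 0.02 (−0.19 with the slide block). Rps6ka5, the mitogen- and stress-activated kinase MSK1, rose by 0.92 (SE 0.12, limma adjusted p = 8.56e-05). It is counted in this list but is not a core member of either pathway, so its rise is not a result about them. Prkab2, a subunit of the energy sensor AMPK, rose by 0.46 (SE 0.07, limma adjusted p = 0.000391). Rps6ka5 read −0.20, −0.16, 0.12, −0.37 and −0.19 in control and 0.77, 0.44, 1.13, 0.86 and 0.62 with AP5. Foxo6, a neuronal forkhead factor, fell by 0.40 (SE 0.08, adjusted p = 0.00559). The blocked values of these 3 genes were 0.25, 0.17 and −0.78. The others that passed were Prkaa1 at 0.38, which turned to −0.02 with the block, and Rheb at −0.21, chosen here after its value was seen. The count was 3 without control array 5, and the balance turned to 2 higher and 3 lower without AP5 array 3. Of 44 kinesin and dynein genes 3 passed (6.82%). Among them the kinesin gene Kif21b read 1.76, 1.51, 1.84, 1.64 and 1.71 in control and 1.06, 0.99, 1.17, 1.12 and 0.96 with AP5, with all 3 probes lower. It fell by 0.63 (SE 0.10, adjusted p = 0.000288), and blocking on slide gave −1.21, which passed (adjusted p = 0.0201).

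Lipid genes gave Elovl6, a fatty acid elongase, at −0.41 (SE 0.06, limma adjusted p = 0.000101), 1 of 32 fatty acid genes (2 without AP5 array 1), and Sgpp1, a sphingosine phosphate phosphatase, at 0.38 (SE 0.07, 0.16 with the block), 1 of 35 sphingolipid genes. Cholesterol genes had 6 of 28 lower (21.4%) with a median of −0.27, and −0.70 with the slide block. That count ran from 2 without control array 1, 2 or 4 and 3 without AP5 array 5 or control array 3 to 11 without control array 5, so it depended on single arrays. Naaa, which hydrolyses N-acylethanolamines, rose by 0.48 (SE 0.10, adjusted p = 0.00340; 0.81 with the block). Tnfrsf21, a death receptor of neurons, rose by 0.44 (SE 0.09, adjusted p = 0.00615; 0.26 with the block) and the chemokine receptor gene Cxcr4 by 0.55 (SE 0.12, adjusted p = 0.00706; 0.18 with the block), 2 of the 5 genes that passed among 43 cytokine and chemokine genes (11.6%).

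**Figure D3:**
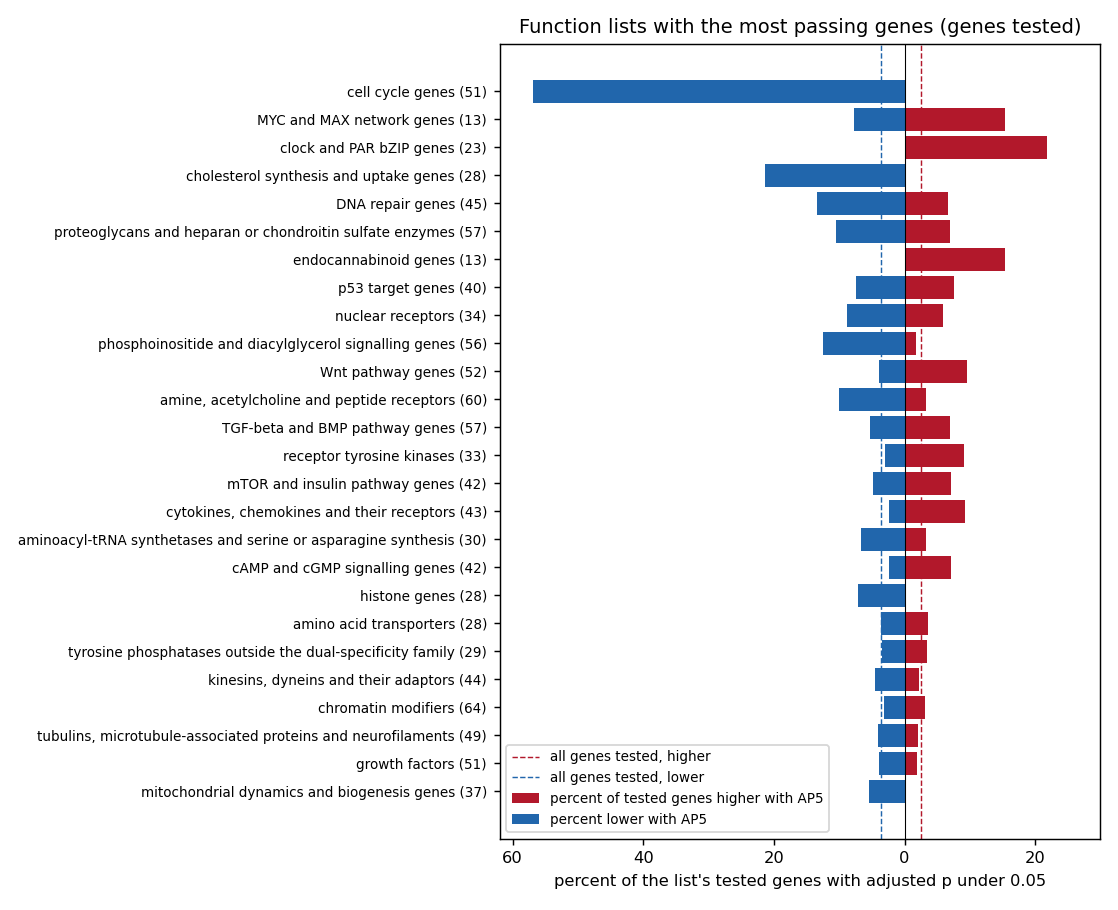
Function lists with the largest shares of passing genes: bars to the right are the percent of a list's tested genes that were higher with AP5 and bars to the left the percent lower (number tested in brackets). The dashed lines mark all genes, 2.53% higher and 3.59% lower. Cell cycle genes reach 56.9% on the left, clock and PAR bZIP genes 21.7% on the right.

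Many functions showed few or no calls. No gene passed among 29 Notch pathway genes, 31 proteasome subunits, 34 genes of the tricarboxylic acid cycle, 32 sodium, calcium and HCN channels, 26 sialyl- and fucosyltransferases, 20 genes of MHC class I, 14 complement genes and 13 gap junction genes (limma, 0 in each list at adjusted p under 0.05). Of the 31 proteasome subunits 28 had values under 0, with a median of −0.09, which turned to 0.09 with the slide block. At an unadjusted p under 0.05 the counts in the list order above were 2, 4, 5, 2, 5, 1, 0 and 2, beside 3444 of all 19353 genes tested. The lists are small, so 0 calls beside a background of 6.11% does not mark them as quieter than other genes. Leaving out 1 array gave 1 call in 4 of these lists: MHC class I without AP5 array 3, gap junctions without AP5 array 1, the channels without AP5 array 2, and the transferases without AP5 array 1, AP5 array 5 or control array 5. The tricarboxylic acid cycle list had 2 without AP5 array 2 and 1 without control array 2 or 3. The lowest adjusted p in these lists belonged to Cacnb1 (−0.30, adjusted p = 0.0561), Dlst (−0.17, 0.0656), Hes1 (0.34, 0.0704), Pofut2 (−0.18, 0.100), Gjd2 (0.50, 0.102), Psmb7 (−0.22, 0.107), Psmb10 (−0.15, 0.203) and C3 (−0.10, 0.440). Shares were also under the background of 6.11% for RNA-binding proteins (1 of 59), lysosome and autophagy genes (1 of 52), synaptic adhesion genes (1 of 50) and axon guidance genes (3 of 59). Single arrays moved such small counts: RNA-binding proteins had 0 without AP5 array 3 or control array 2 or 5 and 2 without AP5 array 1, the lysosome list 2 without AP5 array 1, 2 or 3 or control array 5, synaptic adhesion 2 without AP5 array 1, and axon guidance 5 without AP5 array 1 or control array 2. In the last list Ntng1, a netrin-related membrane protein, fell by 0.93 (SE 0.21, adjusted p = 0.0104), with AP5 array 1 at 1.93 and the others at 3.23 to 3.55 under control values of 3.77 to 4.25. The ion channel list and the synaptic adhesion list had medians of −0.01 and 0.00, but −0.72 and −0.53 with the slide block, so for them the fits differed widely.

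Cell type markers were read to see what the cultures held. All 16 pan-neuronal, all 21 astrocyte and all 12 fibroblast and meningeal markers were above background on every control array. So were 12 of 17 microglia and macrophage, 7 of 13 endothelial and mural and 5 of 8 ependymal and choroid plexus markers. Above it on no control array were 4 microglia and macrophage markers, Itgam, P2ry12, Ptprc and C1qc. The same held for 2 endothelial and mural markers, Cdh5 among them, and 3 ependymal and choroid plexus markers, Ttr among them. No astrocyte, oligodendrocyte, inhibitory neuron or ependymal marker passed (limma, 0 of 21, 13, 16 and 5). At an unadjusted p under 0.05 the counts were 0, 2, 2 and 0, beside 3444 of all 19353 genes tested. Without 1 array, 1 astrocyte marker passed (without AP5 array 1), 1 oligodendrocyte marker (without AP5 array 5) and 2 inhibitory neuron markers (without control array 3). Of 12 microglia and macrophage markers tested, Csf1r was higher (0.46, −0.05 with the slide block) and Fcer1g (−0.38, −0.15 with the block) and Fcgr3 (−0.34) lower, and 1 passed without AP5 array 4 or control array 2, 4 or 5. The mean over astrocyte markers was 2.74 to 4.18 on AP5 and 3.29 to 3.80 on control arrays, and over pan-neuronal markers 4.04 to 4.69 and 4.37 to 4.70. AP5 array 1 was the lowest AP5 array in both, and without it the AP5 means over astrocyte markers were 3.77 to 4.18 and the list's median change was 0.28 in place of 0.03 (0.30 on the first scan day, 0.32 with the slide block). For inhibitory neuron markers AP5 arrays 2 to 5 read 3.301 to 3.41, all above the control arrays at 3.13 to 3.295, and AP5 array 1 read 2.88. Of the excitatory neuron markers Rasgrp1 fell by 1.18 (SE 0.14, limma adjusted p = 2.50e-05), and Wfs1 was higher (0.48), the 2 that passed among 14; Wfs1 passed in 1 of the 10 leave-one-out fits. In each of the other marker lists 1 marker passed: the radial glia marker Cd24a (0.65, adjusted p = 0.00121, in all 10 leave-one-out fits, 0.15 with the block), the pan-neuronal marker Celf4 (0.67, in 6 of the 10, −0.31 with the block), the endothelial marker Kdr and the fibroblast marker Col1a2 (−0.25, in 1 of the 10, −0.45 with the block). The part of cell composition in the moderate changes was not tested.

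**Figure D4:**
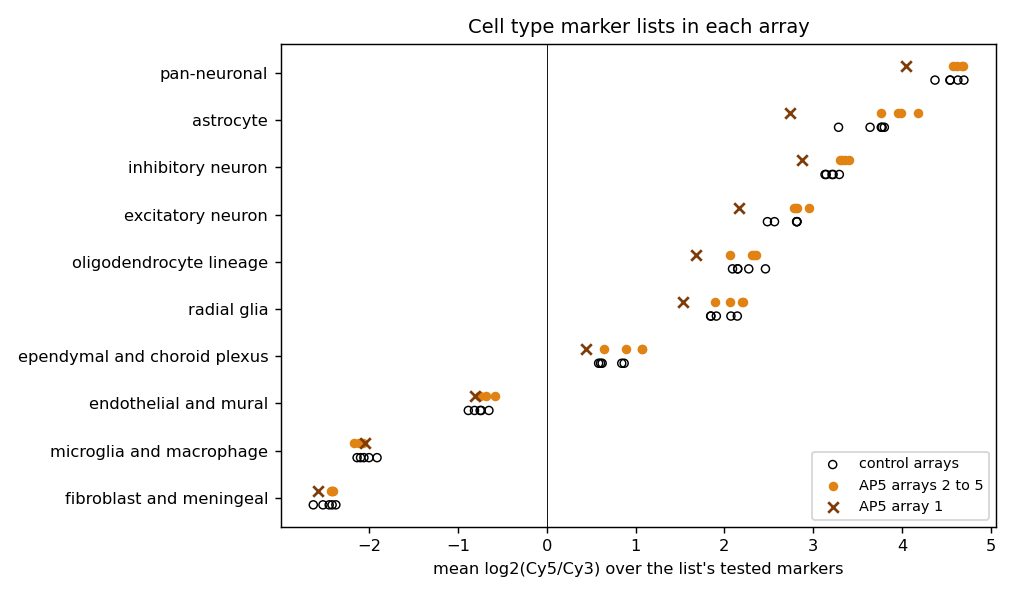
Mean log2 ratio over the tested markers of each cell type (x axis, log2 units) on the 5 control arrays (open circles) and the 5 AP5 arrays (orange points, with array 1 as a cross). The groups overlap in every list, for the inhibitory neuron list through array 1 alone. Array 1 lies below the other AP5 arrays in every list except the microglia and macrophage list.

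**Figure D5:**
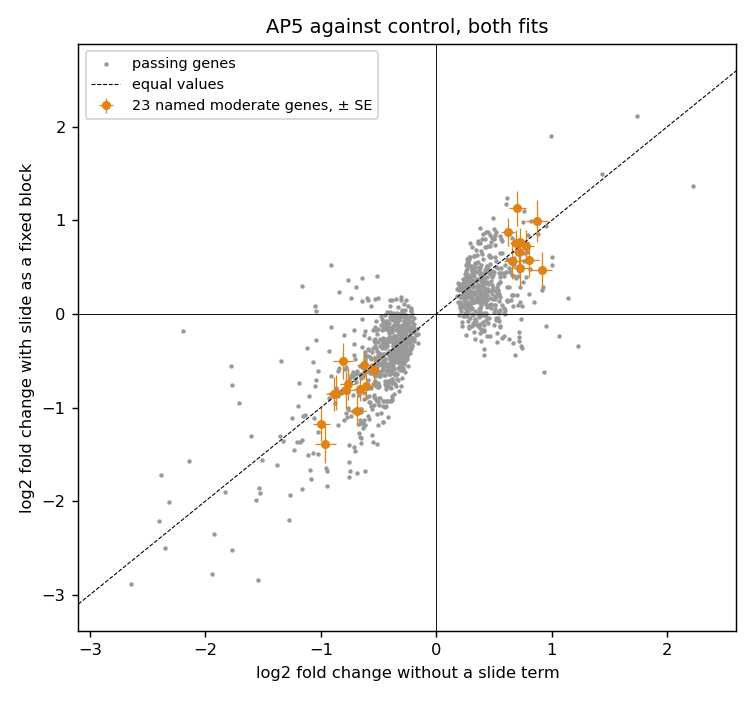
Log2 fold changes of the 1183 passing genes without a slide term (x axis) and with slide as a fixed block (y axis); orange points with SE bars are the 23 named moderate genes and the dashed line marks equal values. Of the 1183 genes 1074 keep their sign, and the 23 run from −1.39 to 1.13 on the y axis. The 23 were chosen to have the same direction in both fits.

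For genes without a measurable level in one group only an approximate bound is given. The lipase gene Pnlip was above background on 5 of 5 control and 0 of 5 AP5 arrays, so it could enter the test through its control arrays alone. Its bound was 1.54-fold lower with AP5. The limma adjusted p of 0.000299 belongs to the fitted change and does not test the bound. For Ccdc63, above background on 4 control and 0 AP5 arrays, the bound was 1.26-fold lower (limma adjusted p of the fitted change = 0.00706). It reached the 5 arrays needed to enter the test only with NVP or Ro25 arrays. Each bound is the smaller of the fitted change (−0.62 and −0.33) and of the control mean less the AP5 mean of the red signal, where an AP5 array counted at its own signal or at the lowest detected on that array, whichever was higher. They came out close to the fitted changes and are open to dye bias. Like those changes they carry sampling error, so the true change may be smaller. With the slide block the values were −0.84 and −0.11.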

How the data were processed

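RNA of 20 neuron culture samples was measured on 2-colour Agilent arrays (45018 spots, 41174 probes). The authors deposited scanner output, an intensity per spot and a log10 ratio of red over green, per the file headers, for which the file headers name Feature Extraction 10.7.3.1 and the submitters' processing notes 11.0. They also deposited a value table of 20674 probes as log2 ratios, which followed loess values without background correction (slopes 0.969 to 0.985 over 11141 probes); its column medians were 0.0302 to 0.0626 and its centring stays unknown. 0 sample columns were left unused.

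From the intensities, background was corrected with normexp (offset 50), each array was normalized by loess, and spots of a probe were averaged. Probes whose red signal was well above background on 5 or more arrays were kept (28518). Genes were named through RefSeq symbols (GRCm38.p6) and read from their brightest probe. The package limma (3.58.1, R 4.3.3) fitted 1 mean per group over all 20 arrays, two-sided, with Benjamini-Hochberg adjustment at 0.05. The number of arrays limits the precision.

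Named genes were Ptgs2, the 12 moderate genes of lowest adjusted p each way (above background on at least 3 arrays per group, same direction with the slide block, properly named, outside the classic lists), up to 4 passing members of each of 64 lists or else the 1 of lowest p, and bounds. A few named genes and a list are not reported here. The members and lists were chosen with earlier results of these data known. Alternatives were slide, scan day, replicate number, normalization, signals, filters, probe choice and leaving out each array; list counts without each array were added after the data were seen. On simulated data 47% of 100 genes changed 1.3-fold and 75% of 100 changed 1.5-fold were called, and 3.17% of 126 calls were false. The simulated noise was independent between genes and arrays, without effects of slide, scan day or single arrays. These shares therefore need not hold for the real arrays, where slide and treatment are only partly separable.

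Title numbers were checked as pairs: the deviations of same-numbered AP5 and control arrays correlated at −0.135, −0.371, 0.0626, −0.297 and 0.568, so numbers were not taken to pair arrays.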

Additional observations from a re-analysis of the deposited data

Results flagged for a closer look

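Single arrays far from the others of their group were looked for in 326 groups of 5 (163 named genes, 2 groups each), and 19 were found (5.83%), where chance gives about 1 in 20. AP5 array 1 accounted for 8. It lay below the other AP5 arrays for Fbxo9 (1.34, the others 1.51 to 1.55), Wnt5b (0.409), Hdac9 (2.42), Ntng1 (1.93) and Gjd2 (1.71), and above them for Fam107b (0.274), Pbp2 (−0.397) and Shmt1 (−0.67). AP5 array 2 lay above the rest for Cacnb1 (0.555) and Dlst (0.231), AP5 array 4 below for Synj2 (−0.288) and AP5 array 5 below for Nsdhl (−0.555). Control array 5 lay apart for Mst1r (0.109), Bop1 (−0.56) and Cars (−0.97), control array 4 for Pmaip1 (−0.0653) and Hes1 (−1.11), control array 3 for Slc44a5 (0.218) and control array 2 for Fanci (−1.72). All values are log2 ratios to the reference.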

How the results depend on the processing

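The 1183 passing genes were 775 when only the AP5 and control arrays were fitted, 165 with median centring in place of loess (109 moderate) and 41 with slide as a fixed block (13 moderate). Under the other settings the count was within 1.5 times: 830 to 1216 with 1 array left out (481 to 681 moderate), 1335 with slide as a random block, 914 on the first scan day, 1239 with the replicate block (632 moderate), 1533 with the scanner's log ratios, 1372 with the deposited value table (715 higher, 657 lower) and 1671 without background correction. The rises made up 41.3% of the calls, 52.0% with scanner log ratios, 52.1% with the value table, 49.5% on the first day, 51.6% without AP5 array 1 and 14.6% with the fixed slide block. Of the 151 named genes that passed, 43 still passed with median centring, 121 on the first scan day and 127 to 141 with 1 array left out; with the fixed slide block 13 still passed, 125 kept their direction only and 13 turned: Ube3c (−0.020), Csf1r (−0.047), Acvr1b (−0.068), Synm (−0.24), S100a10 (0.30), Prkaa1 (−0.017), Celf4 (−0.31), Kdr (−0.34), Fgf18 (−0.29), Celsr1 (−0.34), Suz12 (−0.0013), Napepld (−0.18) and Cars (0.11). Of genes that had not passed, Dlx2 (−0.57), Gjd2 (−0.020) and Psmb7 (0.25) turned there, and Psmb10 (0.0014) and C3 (0.037) with median centring. None of the 151 turned under another setting; the cause of these turns was not tested. Signal over background limits the low genes: 17 passing genes were not above background on any array of 1 group.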
